A study of Homo sapiens with 46 samples.

Results

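Replication-dependent histone genes were followed through RNA sequencing of 46 libraries from human cell lines that lost, or kept, the DNA end-binding protein Ku. The members were every gene whose symbol matched an H1-1 to H1-6, H2AC, H2BC, H3C or H4C name. This gave 69 of 61228 genes in the HCT116 table and 69 of 30160 genes in the HEK293 table, made up of 6 linker histone H1 genes, 17 H2A, 18 H2B, 13 H3 and 15 H4 genes. In the reference annotation 55 of them lay in the cluster on 6p, 11 in the cluster at 1q21, 2 at 1q42 and 1 on chromosome 12.

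Core histones H2A, H2B, H3 and H4 form the protein spool of the nucleosome, and H1 binds the linker DNA between nucleosomes. Cells make most of their histone protein during S phase from these genes, and the mRNAs are unusual in ending in a short stem-loop instead of a poly(A) tail. The stem-loop binding protein SLBP holds that end and serves in its processing, its translation and its decay. Some of these genes also give longer, polyadenylated transcripts, which are reported from differentiated or growth-arrested cells. A library made from poly-A RNA therefore sees a different share of histone mRNA than a ribosome-depleted one, and groups were compared only within a table.

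HCT116 is a colon carcinoma line. Ku80-AID HCT116 clones 1, 7 and 9 carried an auxin-inducible degron on Ku80 (gene XRCC5, also called Ku86). Indole-3-acetic acid (IAA, 100 µM) was given together with 0.5 µg/mL doxycycline (dox), so this arm mixes both compounds with Ku80 loss, for 1 day (clones 1 and 9), or for 2, 4 or 6 days (all 3 clones). Their controls received DMSO for 1 day (clones 1 and 9) or 2 days (all 3 clones), and the 2-day controls serve all of the later times. A CDK4/6 inhibitor was given with IAA and dox or without them, for 2 days (clones 1 and 9) or 4 days (all 3 clones). Ku80-AID clones 1, 13 and 15 that also lacked MAVS, the adaptor of cytosolic RNA sensing, received IAA and dox or DMSO for 4 days. Ku86Flox/-:CreERT2 cells, which hold 1 floxed and no second Ku86 allele and a tamoxifen-activated Cre, received 50 nM 4-hydroxytamoxifen (4OHT) or ethanol for 4 days (2 libraries each). Ku86Flox/- cells without Cre received the same (2 libraries each). HEK293 is an embryonic kidney line. Its Ku70-/- clones Sa11, SB and TI kept a dox-inducible ectopic Ku70 (gene XRCC6), numbered Ku70 to Ku75 over the 6 labels and read here as Ku70, and were sampled 8 days after dox withdrawal or on 1 µg/mL dox (3 libraries each), so dox itself also differs between these arms. Each clone is 1 isolate of its line. Nothing in the labels says whether the 2 numbered libraries of a floxed group came from separate cultures. Their p-values therefore rest on a spread between libraries that could be technical.

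Estimated counts summed to 9.53 to 45.75 M (mega) per degron library, 13.05 to 17.61 M per floxed library and 19.57 to 28.48 M per HEK293 library. XRCC5 stood at 24.8 and 30.5 CPM (counts scaled to a library total of 1 M) in Cre cells on 4OHT, against 257 and 262 CPM on ethanol. XRCC6 stood at 313 to 652 CPM in HEK293 clones without dox, against 2197 to 3725 CPM with it. MAVS stood at 112 to 199.5 CPM in the MAVS-knockout clones, against 263 to 463 CPM in the other degron clones. In the degron clones the Ku80 transcript does not report on the protein. The epithelial markers EPCAM, KRT8, KRT18 and KRT19 had medians of 313, 1066, 626 and 908 TPM in the HCT116 libraries, while CEACAM5 and CDX1 were at or near 0. Blood markers reached at most 0.987 TPM there. In HEK293 VIM ran from 482 to 647 TPM and LIN28B from 36.7 to 57.0 TPM, and the globin gene HBB was read at 225 to 707 TPM.

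Some annotation models hold the 3′ stem-loop that defines the family, shown here because the H4 genes held a form of their own. A scan of GENCODE 29 transcripts (GRCh38) for a 6-base stem with a 4-base loop in the histone form found it in 29 of the 65 members that have a model and in 72 of 206694 transcripts (0.0348%). Many other models end with the coding region, so a missing loop says only that these letters are not in the model. Capitals mark the loop.

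H2AC6 (chr6:26124669-26124684, + strand): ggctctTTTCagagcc
H2BC5 (chr6:26158587-26158602, + strand): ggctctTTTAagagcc
H3C6 (chr6:26225596-26225611, + strand): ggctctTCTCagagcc
H4C14 (chr1:149833032-149833047, + strand): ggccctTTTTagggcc

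The form shown for H2AC6 was held by 15 members of the H2A, H2B and H3 classes, and that of H2BC5 by 4 members. The H4 genes carried their own stem, with the loop of H4C14 in 3 of them and a C-ending loop in 5. The loop of H3C6 was held by no other member. In 23 members at least 1 annotated transcript ran more than 100 bases past the loop, by up to 1862 bases in H3C6, 1729 in H2BC21, 1128 in H2AC6 and 390 in H2AC25. H2BC5 has 2 annotated transcripts, of 789 and 496 bases. Of these, 1 held the loop and ended 39 bases after it, and the other did not hold it.

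Promoters are shown for the 4 genes called in the most HCT116 comparisons below. RefSeq windows (GRCh38.p14, 250 bases before to 50 bases after the start) were found for 64 members. Each window was searched on both strands for the octamer ATTTGCAT, the CCAAT box (CCAAT) and a TATA core (TATAA). Capitals mark these motifs, which read ATGCAAAT, ATTGG or TTATA where they lie on the other strand.

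H2AC6 (chr6:26123922-26124221, + strand): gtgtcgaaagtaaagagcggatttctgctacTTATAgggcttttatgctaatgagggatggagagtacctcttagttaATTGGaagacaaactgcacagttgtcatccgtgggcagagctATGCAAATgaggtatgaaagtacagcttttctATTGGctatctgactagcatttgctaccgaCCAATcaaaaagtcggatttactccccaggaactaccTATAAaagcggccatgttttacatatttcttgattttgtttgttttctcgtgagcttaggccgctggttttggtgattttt
H2BC12 (chr6:27146809-27147108, - strand): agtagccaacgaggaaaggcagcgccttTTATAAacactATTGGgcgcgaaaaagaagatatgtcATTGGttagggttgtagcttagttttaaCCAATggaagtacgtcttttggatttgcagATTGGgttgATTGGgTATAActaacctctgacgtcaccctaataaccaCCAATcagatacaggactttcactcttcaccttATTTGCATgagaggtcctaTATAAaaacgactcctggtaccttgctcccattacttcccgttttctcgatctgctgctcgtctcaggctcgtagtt
H2BC5 (chr6:26157871-26158170, + strand): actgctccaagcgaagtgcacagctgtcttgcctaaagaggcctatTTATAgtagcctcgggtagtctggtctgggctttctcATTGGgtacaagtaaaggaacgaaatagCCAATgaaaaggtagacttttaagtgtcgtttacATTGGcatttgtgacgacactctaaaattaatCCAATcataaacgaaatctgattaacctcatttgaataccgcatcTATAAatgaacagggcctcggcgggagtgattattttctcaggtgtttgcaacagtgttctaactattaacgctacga
H3C6 (chr6:26223928-26224227, + strand): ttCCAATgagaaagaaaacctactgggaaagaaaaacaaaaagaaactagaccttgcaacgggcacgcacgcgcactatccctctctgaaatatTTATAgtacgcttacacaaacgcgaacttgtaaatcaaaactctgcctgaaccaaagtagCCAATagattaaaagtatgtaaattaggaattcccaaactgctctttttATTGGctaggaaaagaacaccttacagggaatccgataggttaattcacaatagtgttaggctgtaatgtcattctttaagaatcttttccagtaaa

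The octamer, known as the H2B promoter element bound by OCT1, stood in 14 of 18 H2B promoters (77.8%), 11 of 16 H2A promoters (68.8%), 1 of 11 H3 promoters and in none of the 6 H1 and 13 H4 promoters. It stood in 492 of all 27305 RefSeq promoter windows (1.8%). H2AC6 and H2BC12 each had 1 octamer, while H2BC5 and H3C6 had none in this window. The H3C6 window lies at the start (26224178) of a gene record of 3296 bases, and its loop at 26225596. A model of 462 bases ends 5 bases after that loop, so its own start may lie outside the window. A CCAAT box stood in every H1, H2A, H2B and H3 window but in 3 of 13 H4 windows, or 84.4% of members, beside 35.7% of all windows. A TATA core stood in 59 of the 64 members (92.2%), beside 21.1% of all windows. The windows of the divergent neighbours H2AC6 and H2BC4 overlap. A match describes the letters and says nothing of binding.

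The 2 kinds of library showed the family at very different levels. Levels between genes are given in TPM, which are scaled to transcript length. In poly-A HCT116 libraries 21 of 69 members reached a mean of 1 TPM, 5 reached 10 TPM and none reached 100 TPM, and 11 had counts that rounded to 0 in all 40 libraries. In ribosome-depleted HEK293 libraries 57 members reached 1 TPM and 38 reached 100 TPM, and H4C11 alone had counts that rounded to 0 in all 6 (mean 0.00944 TPM). Members took 0.00436% to 0.0246% of the counts in HCT116 libraries and 0.74% to 0.946% in HEK293 libraries. The tables were normalized separately and come from different cells, library kits and instruments, so line and library type cannot be told apart.

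**Figure D1:**
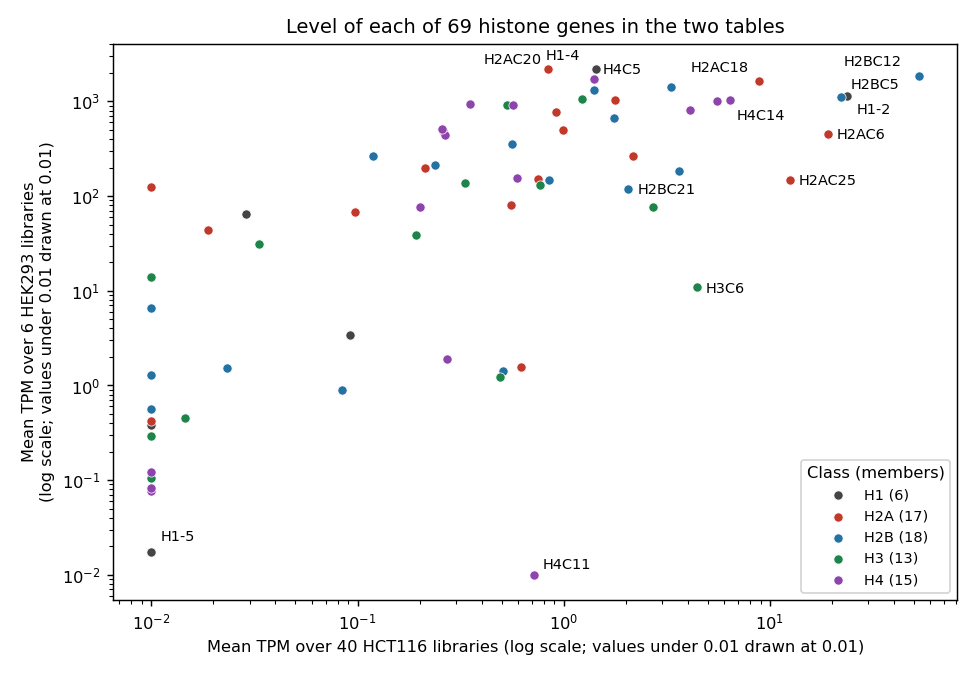
Mean TPM of each of the 69 histone genes over the 6 HEK293 libraries (vertical, log scale) against the 40 HCT116 libraries (horizontal, log scale), coloured by class, with values under 0.01 drawn at 0.01. H2BC12, H1-2 and H2BC5 lie far right at 52.9, 23.7 and 22.2 TPM in HCT116, while H1-4 and H2AC20 sit at the top with 2188 and 2178 TPM in HEK293 at 1.44 and 0.840 TPM in HCT116.

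Few genes carried the poly-A signal. Over all 40 libraries H2BC12 led with a mean of 52.9 TPM, followed by H1-2 with 23.7, H2BC5 with 22.2 and H2AC6 with 19.1 TPM. H2AC25 came next with 12.5 TPM and H2AC18 with 8.84 TPM. These 6 genes made up 71.1% of the summed TPM of the family, and the leading 3 made up 50.5%. The highest H4 genes were H4C14 and H4C15 with 6.38 and 5.53 TPM, and the highest H3 genes were H3C6 and H3C10 with 4.41 and 2.71 TPM. The second H1 gene, H1-4, stood at 1.44 TPM. In HEK293 the order was another one and the signal was spread more evenly, with 37.6% in the leading 6. There H1-4 had 2188 TPM and H1-2 1153 TPM, H2AC20 had 2178 and H2AC18 1640 TPM, and H2BC12 had 1880 and H2BC4 1430 TPM. Among H4 genes H4C5 had 1729 and H4C14 1031 TPM, and among H3 genes H3C15 had 1050 and H3C2 926 TPM. H3C6, the highest H3 gene of the poly-A libraries, had 10.9 TPM in HEK293.

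Some members are copies that reads cannot tell apart. H3C14 and H3C15, H4C14 and H4C15, and H4C11 and H4C12 shared all of their 75-base words in the annotated transcripts, and H2AC18 and H2AC19 had all their counts on 1 gene of the pair in each of the 40 HCT116 libraries. Changes of a single gene of such a pair are therefore uncertain, and the pair sum is given beside most of them, an addition made after the values were seen.

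Floxed HCT116 cells with Cre had higher sums in all 5 histone classes on 4OHT. The summed level was 453 ± 38.2 TPM in Cre cells on 4OHT and 117 ± 1.28 TPM on ethanol (SD, n = 2 each). Every class stood higher in sum in Cre cells on 4OHT, H1 with 68.3 against 27.3 TPM, H2A with 138 against 29.8 TPM, H2B with 200.03 against 40.5 TPM, H3 with 15.8 against 7.30 TPM and H4 with 30.8 against 12.1 TPM on ethanol. Of 69 members 21 passed the filter on low counts and were tested. Of the other 48, 17 had counts that rounded to 0 in all 8 libraries and the highest, H4C5, averaged 0.358 CPM.

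Among the 21 tested members 17 rose in Cre cells on 4OHT against ethanol and none fell (edgeR's quasi-likelihood test, Benjamini-Hochberg adjusted p under 0.05). Of all 16726 genes tested, 54% were called in either direction, 26.4% higher and 27.5% lower. The median log2 change was 1.97 over the tested members and -0.00 over all genes tested. The filter asks for enough counts in at least 2 libraries. H2BC18, H2BC6, H2BC11 and H2AC13 had at most 0.493 CPM in any floxed library other than Cre cells on 4OHT. They thus passed the filter through that group. H2AC20, with 0.0722 and 0.0775 CPM on 4OHT against 0.536 and 0.346 CPM on ethanol, was not tested. The counts and the median of the members lean upward for this reason. The called members were 1 of 1 H1 gene, 4 of 5 H2A, 8 of 9 H2B, 2 of 3 H3 and 2 of 3 H4 genes.

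H1-2, the only linker histone gene tested here, stood at 34.6 and 38.9 CPM in Cre cells on 4OHT, against 14.5 and 13.6 CPM on ethanol (log2 change 1.40, SE 0.09, edgeR adjusted p = 2.23e-08). H2AC6, a core histone H2A gene, stood at 38.1 and 37.1 CPM on 4OHT, against 4.60 and 4.96 CPM on ethanol, and had the largest change of the tested members (2.99, SE 0.11, edgeR adjusted p = 1.36e-10). Neither gene's groups came near each other. H2AC18 had 15.2 and 17.9 CPM on 4OHT, against 3.38 and 2.48 CPM on ethanol (2.51, SE 0.17). H2AC25, an H2A gene of the small 1q42 cluster, had 16.02 and 20.04 CPM on 4OHT, against 5.22 and 6.45 CPM on ethanol (1.65, SE 0.20). H2AC13 was called from few counts (1.66, edgeR adjusted p = 0.0317) and was lost when any 1 of the 4 Cre libraries was left out.

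The H2B class carried the largest part of the sum. H2BC12 stood at 35.2 and 39.5 CPM on 4OHT, against 7.92 and 8.70 CPM on ethanol (2.18, SE 0.10, edgeR adjusted p = 1.11e-09). H2BC5 stood at 29.1 and 33.4 CPM on 4OHT, against 4.90 and 4.24 CPM on ethanol (2.79, SE 0.14, edgeR adjusted p = 3.05e-09). Both rose several-fold in both libraries. H2BC21 had 8.54 and 8.12 CPM on 4OHT, against 2.33 and 1.80 CPM on ethanol (2.03). H2BC4, the divergent neighbour of H2AC6, had 3.99 and 4.63 CPM on 4OHT, against 1.01 and 0.553 CPM on ethanol (2.45). H2BC15 (1.64), H2BC18 (2.78), H2BC6 (2.26) and H2BC11 (1.97) rose at levels of at most 5.15 CPM, of which H2BC18 was lost without the first ethanol library, H2BC6 without the second 4OHT library and H2BC11 without the first library of either arm. H2BC26 was the tested H2B gene that did not pass (0.21).

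Among H3 genes, H3C10 had 5.15 and 4.60 CPM on 4OHT, against 0.681 and 0.737 CPM on ethanol (2.79, SE 0.33, edgeR adjusted p = 9.70e-06). H3C6 had 11.3 and 8.12 CPM on 4OHT, against 3.35 and 3.62 CPM on ethanol (1.501, edgeR adjusted p = 1.34e-05). H3C13 did not pass (1.81, edgeR adjusted p = 0.0700). The near-identical pair H4C14 and H4C15 summed to 11.2 and 14.9 CPM on 4OHT, against 3.35 and 4.24 CPM on ethanol (1.81, edgeR adjusted p = 5.83e-06). Taken singly, H4C14 had 5.64 and 5.50 CPM on 4OHT, against 0.597 and 3.49 CPM on ethanol (1.48, edgeR adjusted p = 0.0216), and H4C15 had 5.52 and 9.45 CPM on 4OHT, against 2.75 and 0.745 CPM on ethanol (2.10, edgeR adjusted p = 0.01001). H4C14 was lost without the first ethanol library or either 4OHT library, and H4C15 without the second library of either arm. The H2A gene H2AC11 and the H4 gene H4C12 did not pass (0.67 and 0.38), but the sum of H4C12 with its copy H4C11 rose by 1.57 (edgeR adjusted p = 0.00939).

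**Figure D2:**
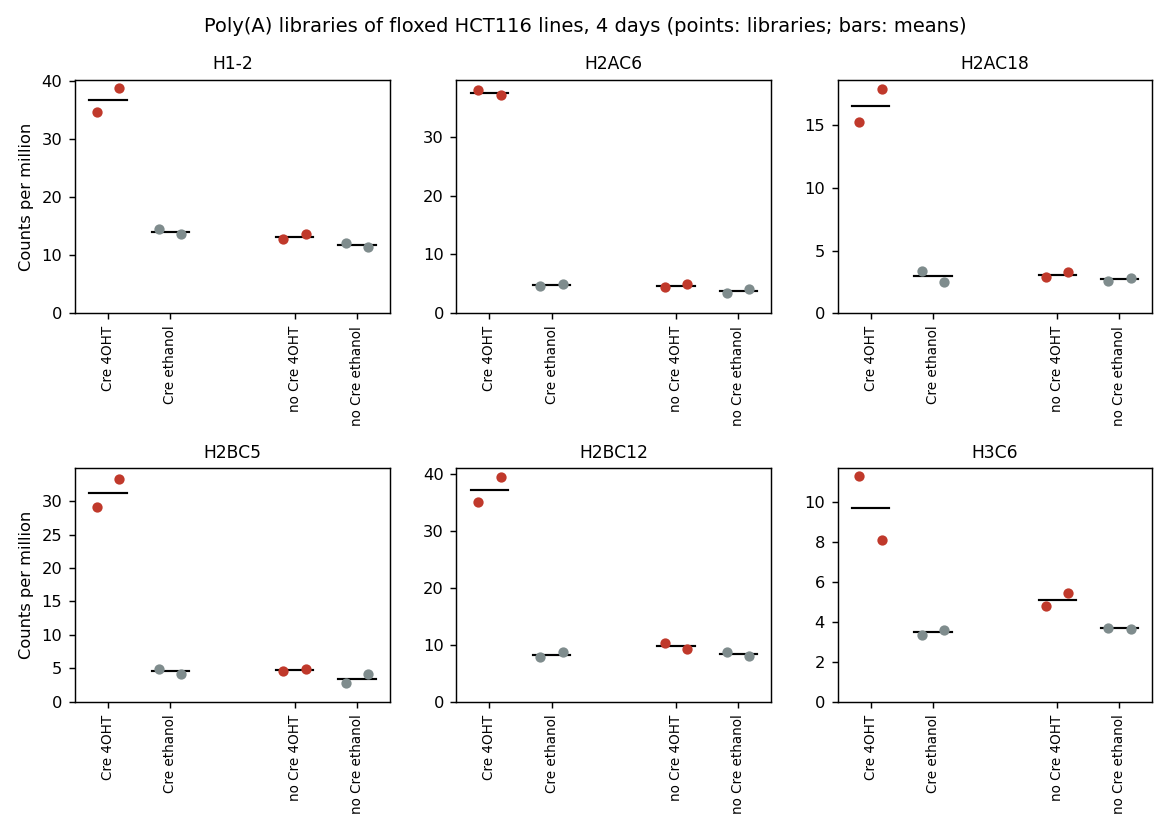
CPM of 6 histone genes in floxed HCT116 cells after 4 days, each point a library and each bar the mean of 2, with 4OHT red and ethanol grey. In the Cre cells on 4OHT H2AC6 lies at 38.1 and 37.1 CPM against 4.60 and 4.96 CPM on ethanol, and in cells without Cre the 2 arms lie close together for the genes shown, at 4.49 and 4.93 against 3.48 and 4.20 CPM for H2AC6.

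In cells without Cre the same compound called 1 member. H4C14 rose (2.04, edgeR's quasi-likelihood test) among 21 tested, beside 13.7% of all genes called (7.26% higher, 6.44% lower), at 3.80 and 4.12 CPM on 4OHT, against 1.40 and 0.283 CPM on ethanol. The call was lost without the second ethanol library or either 4OHT library, and the sum with H4C15 rose by 0.93 (edgeR adjusted p = 0.0292). H1-2 had 12.8 and 13.6 CPM on 4OHT, against 12.1 and 11.5 CPM on ethanol (0.09, edgeR adjusted p = 0.61). H2BC12 had 10.3 and 9.38 CPM on 4OHT, against 8.84 and 8.07 CPM on ethanol (0.15, edgeR adjusted p = 0.45). For H2AC6 and H2BC5 the log2 changes were 0.24 and 0.41 (edgeR adjusted p = 0.37 and 0.18). The summed level was 120 ± 9.66 TPM on 4OHT and 94.1 ± 0.710 TPM on ethanol (SD, n = 2 each). The 4OHT response of Cre cells exceeded that of cells without Cre for 12 of 21 tested members and fell short for none, beside 41.2% of all genes (18.8% larger, 22.4% smaller), in an edgeR contrast of the 4 groups. These are the same 21 members, so the upward lean from the filter holds here too. The difference was 2.75 on the log2 scale for H2AC6, 2.37 for H2BC5, 2.04 for H2BC12 and 1.31 for H1-2.

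In the degron clones the number of called members differed with time, and so did the share of all genes called. The 1-day groups held 2 libraries each and the later ones 3. After 1 day of IAA and dox no member of 28 tested passed against 1-day DMSO, where 0.185% of all 18877 genes did (0.117% higher, 0.0689% lower), 1 member had an unadjusted p under 0.05, and DESeq2 also called 0. H2BC12 had 9.91 and 14.3 CPM on IAA, against 10.4 and 11.2 CPM on DMSO. H3C6 had 1.98 and 2.70 CPM on IAA, against 1.34 and 0.964 CPM on DMSO (0.93, edgeR adjusted p = 0.67). Of the 41 members not tested in this fit 11 had counts that rounded to 0 in all HCT116 libraries, and the highest, H4C5, averaged 0.27 CPM.

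The summed level was 145 ± 12.5 TPM on DMSO at 2 days, 239 ± 4.33 TPM at 2 days of IAA, 215 ± 12.2 TPM at 4 days and 173 ± 15.2 TPM at 6 days (SD, n = 3 each). H2B genes made up most of the difference, with 54.2 ± 2.66 TPM on DMSO, 120 ± 8.14 TPM at 2 days, 113 ± 10.2 TPM at 4 days and 92.8 ± 16.1 TPM at 6 days. H4 genes summed to 8.40 ± 0.902 TPM on DMSO, 19.1 ± 3.05 TPM at 2 days, 24.6 ± 14.5 TPM at 4 days and 15.04 ± 3.10 TPM at 6 days, while the 1-day DMSO libraries averaged 24.1 TPM. The H1 sum ran 24.4 TPM on DMSO, then 30.4, 26.1 and 19.2 TPM, and the H3 sum 15.5 ± 8.51 TPM, then 15.4 ± 2.57, 9.57 ± 2.80 and 8.90 ± 0.565 TPM. As a share of counts, which is not scaled to length, the H3 genes took 0.000602% on DMSO, then 0.00164%, 0.00115% and 0.00113%, so the direction of the H3 sum depends on the scale. The whole family took 0.00502% of counts on DMSO, then 0.00984%, 0.0104% and 0.00909%.

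Against 2-day DMSO, 6 of 28 tested members rose and 2 fell at 2 days of IAA, where 19.1% of all genes were called (9.12% higher, 9.94% lower). At 4 days 8 rose and 1 fell, where 32.8% of all genes were called (17.9% higher, 14.9% lower). At 6 days 6 rose and 3 fell, where 35.2% of all genes were called (17.8% higher, 17.5% lower). The share of members called in either direction was thus near the background at 4 and 6 days, unlike in the Cre cells, whose count leans upward through the filter. Medians over the tested members were 0.33, 0.43 and 0.75 on the log2 scale, beside 0.00, 0.04 and 0.00 over all genes. The 3 comparisons share their control libraries. H2AC6, H2BC12, H2BC5, H2BC15 and H3C6 were called higher at all 3 times, and these 5 genes were also among the 17 called in Cre cells (29.4% of that list), which shares no library with them, and 19 members were tested in both fits. Of all genes tested in both fits and higher at all 3 times, 67.2% were higher in Cre cells too. These made up 17% of all genes that were higher in Cre cells and tested in both fits. The 29.4% is instead taken over all 17 members, of which H2AC13 was not tested in the degron fit.

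H3C6 stood at 2.96, 1.25 and 2.91 CPM on DMSO in clones 1, 7 and 9, at 16.1, 11.9 and 11.9 CPM after 2 days of IAA, at 10.7, 8.64 and 9.13 CPM after 4 days and at 10.3, 7.83 and 9.04 CPM after 6 days. Every IAA library lay above every control, with log2 changes of 2.41 (SE 0.34), 2.06 and 1.97 (edgeR adjusted p = 1.46e-05, 3.06e-05 and 4.69e-05). H2BC5 stood at 2.27, 2.20 and 2.31 CPM on DMSO, at 8.53, 7.41 and 8.70 CPM after 2 days, at 12.7, 9.05 and 7.33 CPM after 4 days and at 7.42, 11.2 and 9.74 CPM after 6 days. Its groups did not overlap either, with log2 changes of 1.76 (SE 0.38), 2.14 and 2.06 (edgeR adjusted p = 0.00125, 5.86e-05 and 8.21e-05).

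H2AC6 stood at 3.05, 2.71 and 3.81 CPM on DMSO, at 9.86, 5.93 and 11.3 CPM after 2 days, at 8.66, 9.11 and 12.9 CPM after 4 days and at 22.01, 10.2 and 9.20 CPM after 6 days. All IAA libraries exceeded the controls, by 1.40, 1.72 and 2.14 on the log2 scale (edgeR adjusted p = 0.00528, 0.000349 and 2.19e-05). H2BC12 stood at 8.38, 8.94 and 9.14 CPM on DMSO, at 15.5, 18.7 and 20.2 CPM after 2 days, at 22.2, 14.3 and 23.8 CPM after 4 days and at 13.1, 12.3 and 26.5 CPM after 6 days. Its changes were 0.93, 1.23 and 0.99 (edgeR adjusted p = 0.0280, 0.00218 and 0.0105). The call at 2 days was lost without any 1 DMSO library or without IAA clone 7 or 9, and the call at 6 days without IAA clone 9. H2BC15 rose by 1.38, 2.31 and 0.98, from libraries of at most 1.98 CPM on DMSO, and was lost at 2 days without DMSO clone 7 or IAA clone 1 and at 6 days without DMSO clone 1 or 7 or IAA clone 9.

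**Figure D3:**
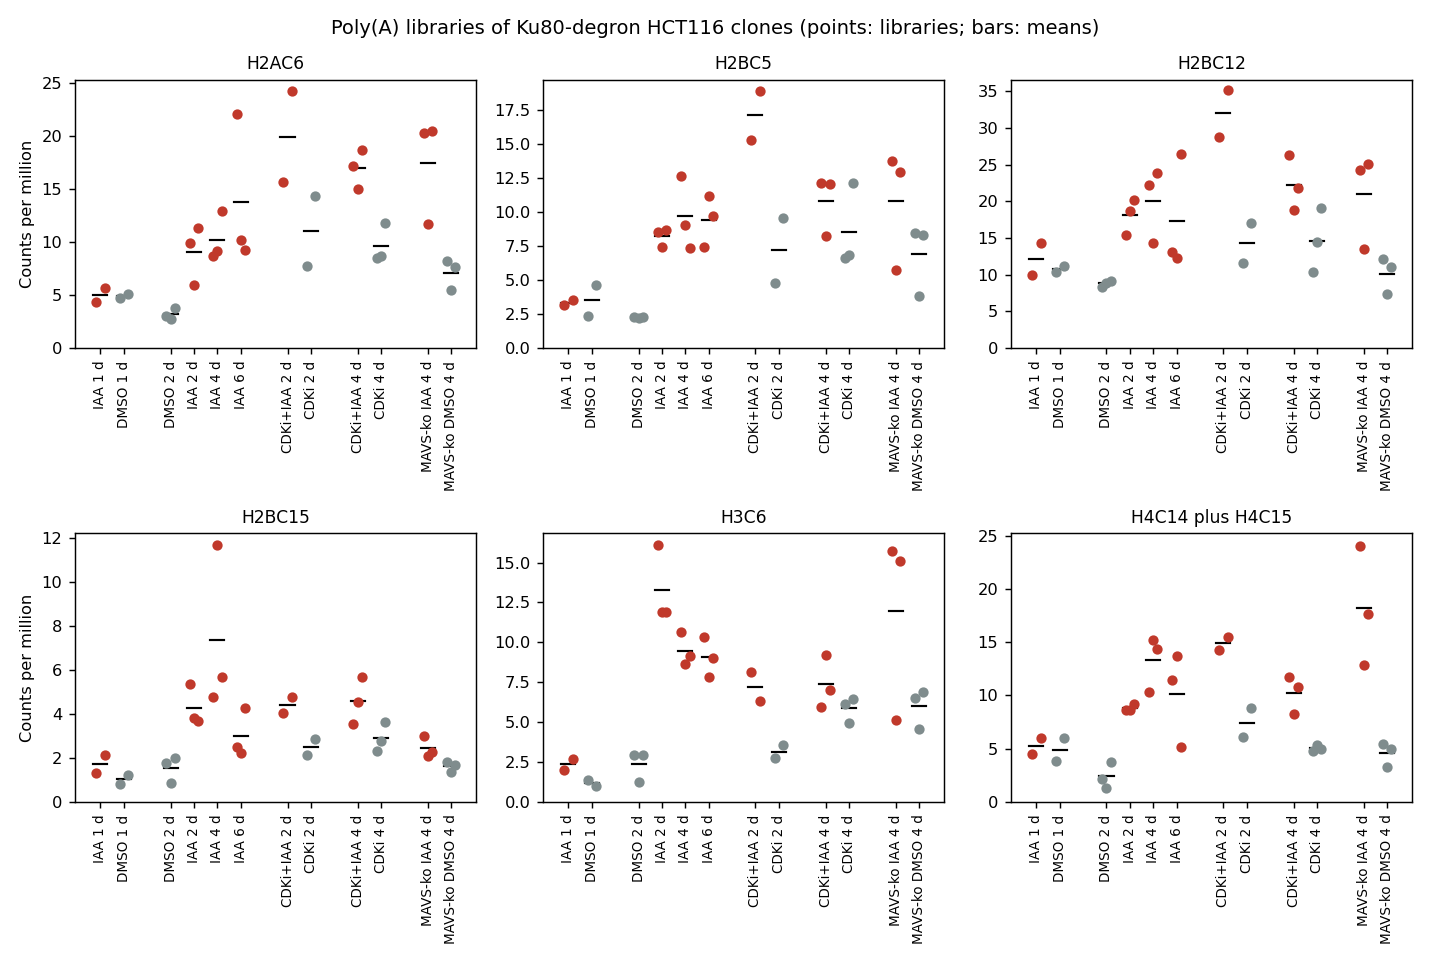
CPM of 5 histone genes and of the pair H4C14 plus H4C15 in Ku80-degron HCT116 clones, each point a library and each bar the group mean, with IAA arms red and arms without IAA grey. H3C6 and H2BC5 lie above every 2-day DMSO library at 2, 4 and 6 days of IAA, H3C6 at 7.83 to 16.1 CPM against 1.25 to 2.96 CPM.

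The other called genes of these clones were seen at 1 or 2 times. H2BC21 had 3.80, 4.23 and 5.47 CPM after 2 days of IAA, against 1.77, 1.58 and 0.703 CPM on DMSO (1.60, edgeR adjusted p = 0.0144). It also rose at 4 days (2.00), where 1 IAA library at 1.64 CPM lay within the controls, and did not pass at 6 days (0.78). Its 2-day call was lost without DMSO clone 9, and without that library 5 members in place of 8 were called at 2 days. H2BC6 rose at 4 days (2.61, edgeR adjusted p = 0.0129), lost without IAA clone 7, and H2BC11 at 6 days (1.55, edgeR adjusted p = 0.0284), lost without DMSO clone 7 or 9 or IAA clone 7. H2AC17 fell at 4 and 6 days (-2.33 and -2.47) and H2AC11 fell at 6 days (-2.52), all of them genes under 2.2 CPM in every library compared. The H2AC17 calls were lost without any of 5 libraries at 4 days, namely each DMSO library and IAA clones 7 and 9, and of 3 at 6 days, namely DMSO clones 1 and 7 and IAA clone 1. H3C15 was called lower at 2 days on 2 counts, against 24 on DMSO, although the groups overlapped, as was its sum with H3C14 (-3.87, edgeR adjusted p = 0.0329). The single-gene call was lost without DMSO clone 1 or 9 or IAA clone 7 or 9. H2AC20 was at 0 counts at 2 days and at 6 days, against 14 counts on DMSO. Set against a floor of 3 counts over the group, it was at least 5.43-fold lower at 2 days and at least 13.6-fold lower at 6 days, and such floors cover counting error only.

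H1-2, the leading linker histone gene, did not pass at any time. It had 10.9, 5.57 and 8.23 CPM on DMSO, 11.7, 10.4 and 10.3 CPM at 2 days, 12.2, 11.5 and 10.46 CPM at 4 days and 10.54, 6.80 and 9.43 CPM at 6 days of IAA, with log2 changes of 0.30, 0.52 and 0.14. With the clone as a block the 4-day value passed (0.54, edgeR adjusted p = 0.0347). The pair H4C14 plus H4C15 summed to 2.17, 1.32 and 3.71 CPM on DMSO, 8.66, 8.68 and 9.20 CPM at 2 days, 10.3, 15.2 and 14.4 CPM at 4 days and 11.5, 13.7 and 5.14 CPM at 6 days. The pair rose at each time (1.80, 2.54 and 2.10, edgeR adjusted p = 0.000548, 2.73e-06 and 3.02e-05). Taken singly, H4C15 passed at 4 days (2.88, edgeR adjusted p = 0.0470, lost without DMSO clone 1 or 7 or IAA clone 9) but not at 2 or 6 days (2.96 and 2.01), and H4C14 at none (-1.10, 2.23 and 2.15). Between 6 and 2 days of IAA H4C14 was the only member called of 28 (3.25, edgeR adjusted p = 0.0135, beside 24.6% of all genes, 12.8% higher and 11.8% lower), a call lost without IAA 2-day clone 1 or 7, and the pair sum did not pass (0.30, edgeR adjusted p = 0.526).

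The 2-day DMSO libraries differed from the 1-day ones in some members. H3C6 had 2.96, 1.25 and 2.91 CPM at 2 days, against 1.34 and 0.964 CPM at 1 day, and H2AC6 had 3.05, 2.71 and 3.81 CPM at 2 days, against 4.73 and 5.10 CPM at 1 day. With the 1-day libraries as controls, a choice made after the values were seen, H3C6, H2BC5 and H2BC15 still rose at 2, 4 and 6 days of IAA. H2BC12 then did not pass at any of these times (edgeR adjusted p = 0.245, 0.0519 and 0.183), H2AC6 was lost at 2 days (edgeR adjusted p = 0.19), H2AC17 at both of its times and H2BC11 at 6 days (0.82, edgeR adjusted p = 0.25). Against these controls H3C10 and H4C15 were also called higher at 2 days (1.29 and 3.18, edgeR adjusted p = 0.0325 and 0.0447), H2BC21 was called higher at 6 days too (edgeR adjusted p = 0.0206), H4C14 was called lower at 2 days (-2.84, edgeR adjusted p = 0.0225) and H2AC20 was called lower at 4 days too (-2.83, edgeR adjusted p = 0.026).

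The CDK4/6 inhibitor, which holds cells in G1, was also given without IAA. At 2 days 3 of 28 tested members rose against 2-day DMSO and none fell, where 34.4% of all genes were called (20.8% higher, 13.6% lower), so the count lies below the background. H2AC6 had 7.74 and 14.3 CPM on inhibitor, against 3.05, 2.71 and 3.81 CPM on DMSO (1.95, edgeR adjusted p = 0.000231). H2BC5 had 4.82 and 9.56 CPM on inhibitor, against 2.27, 2.20 and 2.31 CPM on DMSO (1.83, edgeR adjusted p = 0.000897), and H2BC12 had 11.6 and 17.1 CPM, against 8.38, 8.94 and 9.14 CPM on DMSO (0.85, edgeR adjusted p = 0.0454). Leaving out inhibitor clone 9 left 1 call, H2AC6, and with the 1-day controls none of the 3 passed. The H2BC12 call was also lost without any 1 of the DMSO libraries. The pair H4C14 plus H4C15 summed to 6.08 and 8.83 CPM on inhibitor, against 2.17, 1.32 and 3.71 CPM on DMSO (1.81, edgeR adjusted p = 0.000551). This pair had 3.8 and 5.99 CPM on 1-day DMSO. The sum of H2AC18 with H2AC19 also rose (1.36, edgeR adjusted p = 0.0216). The titles give the time of the 2-day inhibitor libraries in hours, as for the 1-day libraries, and that of the 2-day DMSO libraries in days. H1-4 stood at 0.474 and 0.364 CPM in the 2-day inhibitor libraries and at 0.526 and 0.482 CPM on 1-day DMSO, against 2.07, 3.15 and 1.91 CPM on 2-day DMSO. The labels name no batch, and the part of such a difference in these calls was not tested.

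At 4 days 3 members rose and none fell, where 7.69% of all genes were called (3.85% higher, 3.84% lower). H2BC5 had 6.66, 6.88 and 12.1 CPM on inhibitor, against 2.27, 2.20 and 2.31 CPM on DMSO (2.05, edgeR adjusted p = 0.00098), and H2AC6 had 8.51, 8.63 and 11.8 CPM, against 3.05, 2.71 and 3.81 CPM on DMSO (1.72, edgeR adjusted p = 0.00254). H3C6 had 6.16, 4.97 and 6.45 CPM on inhibitor, against 2.96, 1.25 and 2.91 CPM on DMSO (1.45, edgeR adjusted p = 0.00799, lost without DMSO clone 7). None of the groups overlapped. H3C6 did not pass at 2 days of inhibitor (0.58), nor H2BC12 at 4 days (0.85, edgeR adjusted p = 0.0795), which passed with the clone as a block (0.82, edgeR adjusted p = 0.0183). The pair H4C14 plus H4C15 summed to 4.76, 5.38 and 4.92 CPM on inhibitor, against 2.17, 1.32 and 3.71 CPM on DMSO (1.21, edgeR adjusted p = 0.0328). The sum of H2AC18 with H2AC19 did not pass (1.14, edgeR adjusted p = 0.0963). The inhibitor comparisons use the same 2-day DMSO libraries as the IAA ones.

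Adding IAA to the inhibitor called no member. At 2 days none of 28 passed against inhibitor alone, where 0.413% of all genes did (0.297% higher, 0.117% lower), with 3 at an unadjusted p under 0.05 and 0 by DESeq2. H2BC12 had 28.8 and 35.2 CPM with inhibitor and IAA, against 11.6 and 17.1 CPM with inhibitor (1.08, edgeR adjusted p = 0.24), and passed with the clone as a block (1.101, edgeR adjusted p = 0.0376). The summed level was 287 ± 33.8 TPM with inhibitor and IAA and 158 ± 33.9 TPM with inhibitor (SD, n = 2 each), and the log2 values were 1.16 for H2BC5 and 0.77 for H2AC6, neither of which passed. At 4 days none passed, where 11.2% of all genes did (6.13% higher, 5.1% lower), with 3 at an unadjusted p under 0.05 and 1 called by DESeq2. H2AC6 then had 17.2, 14.96 and 18.7 CPM with inhibitor and IAA, against 8.51, 8.63 and 11.8 CPM with inhibitor (0.71, edgeR adjusted p = 0.17), and the log2 values were 0.50 for H2BC12, 0.24 for H3C6 and 0.22 for H2BC5.

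The IAA responses with and without inhibitor were then compared in an edgeR contrast of 4 groups. At 2 days no member differed, nor did any of the 18877 genes (percent called 0), DESeq2 called 0 members, and 3 had an unadjusted p under 0.05. At 4 days 3 of 28 members responded less with the inhibitor, where 4.69% of all genes differed (2.5% less, 2.19% more). The differences in log2 change were -1.82 for H3C6, -1.92 for H2BC5 and -2.22 for H2BC21. The count ran from 0 without DMSO clone 7 to 5 without IAA 4-day clone 1. H3C6 was lost without 3 libraries (inhibitor with IAA clone 1 or 9, DMSO clone 7), H2BC5 without 4 (inhibitor with IAA clone 7, inhibitor clone 9, DMSO clone 7 or 9) and H2BC21 without 8 of 12. With the clone as a block H2BC15 also passed (-1.78, edgeR adjusted p = 0.0391). The pair sum of H4C14 and H4C15 responded less too (-1.61, edgeR adjusted p = 0.0465).

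In clones without MAVS 2 members rose and none fell at 4 days of IAA, where 7.88% of all genes were called (4.73% higher, 3.15% lower). H2AC6 had 20.3, 11.7 and 20.5 CPM on IAA in clones 1, 13 and 15, against 8.24, 5.50 and 7.62 CPM on DMSO (1.24, SE 0.32, edgeR adjusted p = 0.0164). H2BC12 had 24.2, 13.5 and 25.1 CPM on IAA, against 12.1, 7.31 and 11.1 CPM on DMSO (0.98, SE 0.29, edgeR adjusted p = 0.0361). In both genes the groups did not overlap, with clone 13 lowest in either arm. H3C6 had 15.7, 5.12 and 15.1 CPM on IAA, against 6.48, 4.56 and 6.89 CPM on DMSO (0.94, edgeR adjusted p = 0.0651), and passed with the clone as a block (0.83, edgeR adjusted p = 0.0496). H1-2 and H2BC5 did not pass (0.37 and 0.59). The pair H4C14 plus H4C15 summed to 24.1, 12.9 and 17.7 CPM on IAA, against 5.40, 3.30 and 4.94 CPM on DMSO (1.94, edgeR adjusted p = 0.000384). The count of 2 calls ran from 0 without IAA clone 1, DMSO clone 13 or IAA clone 15 to 4 without IAA clone 13, and was 1 without DMSO clone 1 or 15. The summed level was 236 ± 76.2 TPM on IAA and 129 ± 34.3 TPM on DMSO (SD, n = 3 each).

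The 4-day IAA response of MAVS-knockout clones did not differ from that of MAVS-intact clones for any of 28 members, where 4.85% of all genes differed (2.46% more, 2.39% less). There were 4 members at an unadjusted p under 0.05, and DESeq2 called 2. H2BC15 differed by -1.77 and H2BC5 by -1.56 (edgeR adjusted p = 0.0579 and 0.0708), and both passed with the clone as a block (-1.80 and -1.59, edgeR adjusted p = 0.0412 and 0.0153). The MAVS-knockout controls were taken at 4 days and the MAVS-intact controls at 2 days, and only clone number 1 occurs in both sets, so clone, day and genotype cannot be told apart.

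**Figure D4:**
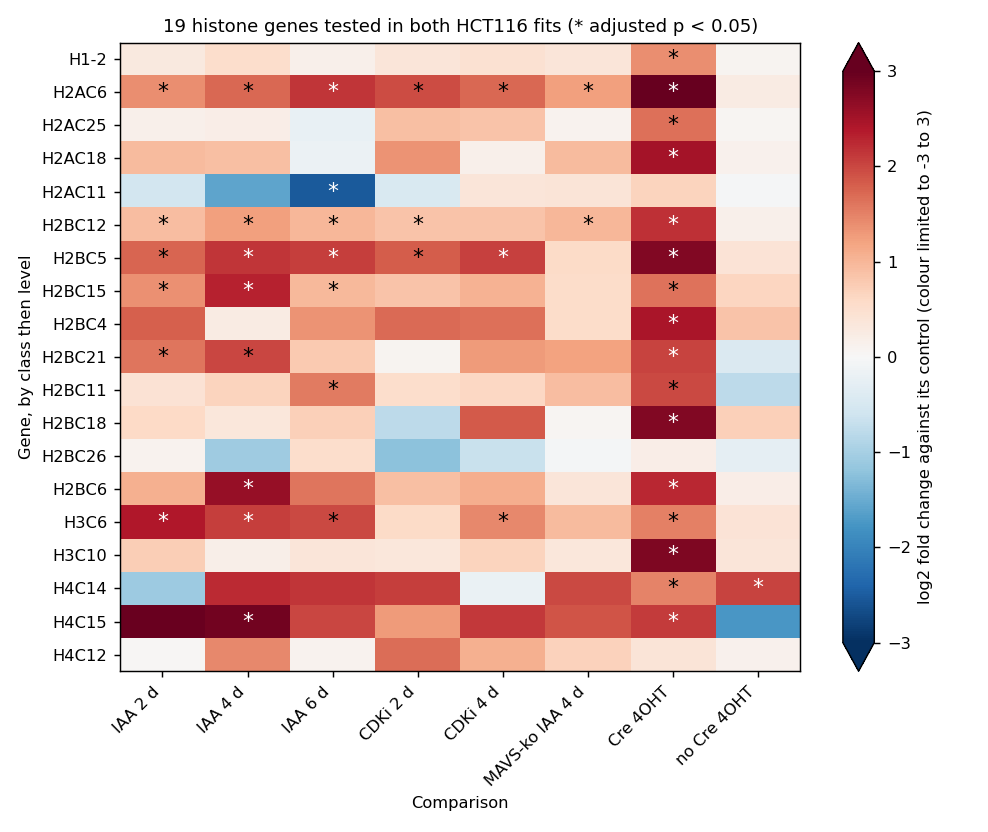
Log2 fold change (colour, limited to -3 to 3) of the 19 histone genes tested in both HCT116 fits, by class and then level, for IAA at 2, 4 and 6 days, the CDK4/6 inhibitor (CDKi) at 2 and 4 days, IAA in MAVS-knockout clones, and 4OHT in cells with and without Cre, each against its control. Stars mark an edgeR adjusted p under 0.05, and H2AC6 carries one in each column but the last, where its value is 0.24.

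In the HEK293 libraries, which were not selected for a poly(A) tail, the summed level after dox withdrawal was 29862 ± 4253 TPM, against 28850 ± 1613 TPM with dox (SD, n = 3 each). H2B genes summed to 7345 ± 1228 TPM without dox and 8131 ± 344 TPM with it, H4 genes to 8347 ± 1121 and 6926 ± 663 TPM, H2A genes to 8399 ± 1080 and 7910 ± 239 TPM, H3 genes to 2398 ± 521 and 2438 ± 180 TPM and H1 genes to 3373 ± 528 and 3446 ± 287 TPM, without dox first in each pair. Of 69 members 52 were tested, and the 17 others averaged at most 0.406 CPM (H2BC1). Without dox 5 members rose and 9 fell, where 22% of all 15549 genes were called (11.1% higher, 10.9% lower), so that the share of members called in this fit is near the background. The median log2 change was 0.03 over the tested members and 0.00 over all genes. With the clone as a block, since each clone is in both arms, 24 members were called, 13 higher and 11 lower, where 34.8% of all genes were. The 10 members called with the block alone were H1-6 (1.00), H2AC16 (-0.56), H2AC19 (1.41), H2AC20 (0.46), H2AC21 (0.39), H2BC26 (0.38), H3C13 (-0.51), H3C6 (0.42), H4C3 (0.64) and H4C5 (0.38), with edgeR adjusted p-values of 0.00158 to 0.046. The sum of H2AC19 with its copy H2AC18 did not pass without the block (0.41, edgeR adjusted p = 0.117).

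Among H1 genes, H1-3 had 26.3, 22.1 and 18.7 CPM without dox in clones SB, Sa11 and TI, against 39.7, 35.5 and 43.0 CPM with it (-0.80, SE 0.14, edgeR adjusted p = 0.00583). The far more abundant H1-4 had 1013, 1267 and 944 CPM without dox, against 1037, 1171 and 936 CPM with it (0.06), and H1-2 had a log2 value of -0.07. H1-3 fell in all 3 clones, while the arms of H1-4 overlapped.

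The H2A genes went both ways. H2AC12 had 76.0, 83.4 and 55.8 CPM without dox, against 141, 158 and 148 CPM with it (-1.04, SE 0.15, edgeR adjusted p = 0.00257). H2AC11 had 222, 221 and 180.1 CPM without dox, against 307, 354 and 312 CPM with it (-0.63, edgeR adjusted p = 0.00981), and H2AC4 fell by 0.61. H2AC6 had 122, 204 and 184 CPM without dox, against 91.0, 103 and 102 CPM with it (0.82, SE 0.21, edgeR adjusted p = 0.0246), and H2AC15 rose at a lower level (0.64). For each of these 5 genes all 3 clones moved the same way and the groups did not overlap. They were picked by their calls, so this adds no separate support. The 2 most abundant H2A genes did not pass, H2AC20 with 0.52 (edgeR adjusted p = 0.139, and 0.0345 with the clone as a block) and H2AC18 with 0.31.

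All 5 called H2B genes fell, of 14 tested, and the median of the class was -0.37. With the clone as a block H2BC26 passed as well and was higher (0.38, edgeR adjusted p = 0.0189). H2BC21 had 164, 151 and 98.2 CPM without dox, against 254, 263 and 230.1 CPM with it (-0.84, SE 0.16, edgeR adjusted p = 0.00718). H2BC17 had 28.6, 29.3 and 19.1 CPM without dox, against 44.98, 45.6 and 42.2 CPM with it (-0.77, edgeR adjusted p = 0.00848). H2BC18 (-0.47), H2BC11 (-0.56) and H2BC13 (-0.55) fell with edgeR adjusted p-values of 0.0394, 0.0497 and 0.0436. H2BC21, H2BC11 and H2BC18 are among the genes that rose in the poly-A libraries of Cre cells, in another line and another kind of library. The 2 leading H2B genes, H2BC12 and H2BC4, did not pass (0.11 and 0.29).

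No H3 gene of 9 tested passed, with H3C15 at -0.03 and H3C2 at 0.20. With the clone as a block H3C6 was called higher and H3C13 lower (0.42 and -0.51, edgeR adjusted p = 0.0364 and 0.046). The sum of H3C14 and H3C15 had a log2 change of -0.02 and did not pass. All 3 called H4 genes rose, of 10 tested, with a class median of 0.41. H4C12 had 124, 238 and 176 CPM without dox, against 97.1, 118 and 92.7 CPM with it (0.85, SE 0.24, edgeR adjusted p = 0.0324). H4C4 had 92.4, 149.95 and 111 CPM without dox, against 83.8, 71.5 and 68.5 CPM with it (0.70, edgeR adjusted p = 0.0288), and H4C8 had 168, 231 and 264 CPM, against 147, 156 and 137 CPM with it (0.64, edgeR adjusted p = 0.0457). The groups did not overlap. The leading H4 gene, H4C5, did not pass (0.40, edgeR adjusted p = 0.118), nor did H4C14 (-0.01). With the clone as a block H4C5 and H4C3 passed (0.38 and 0.64, edgeR adjusted p = 0.0361 and 0.00739). The sum of H4C12 and its copy H4C11 rose by 0.85 (edgeR adjusted p = 0.0322), and that of H4C14 and H4C15 did not pass (0.08).

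Single libraries weighed on the HEK293 count. Leaving out the Sa11, TI or SB library on dox gave 4, 5 and 7 calls. Leaving out the Sa11 or the TI library after withdrawal gave 6 calls each, and leaving out the SB library after withdrawal gave 23. H1-3, H2AC12, H2BC17 and H2BC21 kept their calls in each of these, and H2AC11 in all but 1 (the Sa11 library on dox). All 5 members called higher, and of those called lower H2BC13 and H2BC18, were lost without any library but that of SB after withdrawal. H2AC4 was lost without the Sa11 or TI library of either arm and H2BC11 without any library but that of Sa11 after withdrawal.

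**Figure D5:**
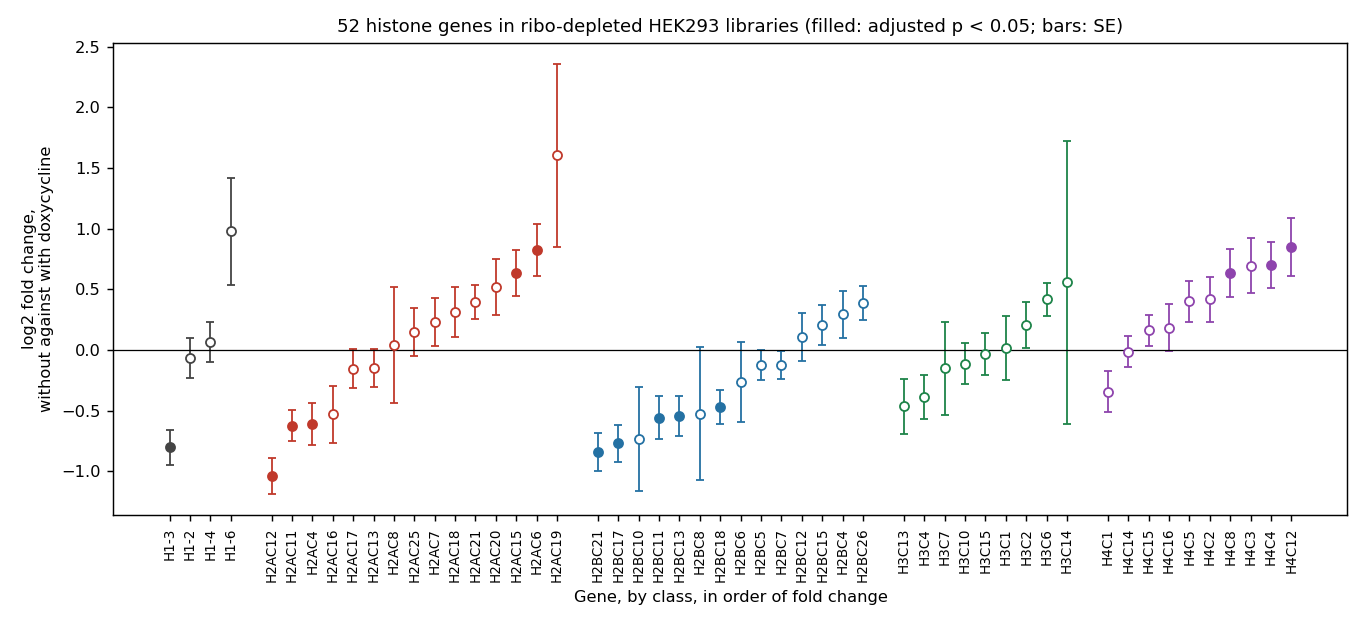
Log2 fold change in HEK293 clones without against with dox for the 52 tested histone genes, by class and in order of change, with bars of 1 SE and filled points for an edgeR adjusted p under 0.05. Filled H2B points lie at -0.84 to -0.47 and filled H4 points at 0.64 to 0.85.

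Other genes that work with histone mRNA and protein were counted in lists that were the same in each comparison. Of 25 S-phase genes tested, such as cyclin E and replication factors, 24 fell and none rose in Cre cells on 4OHT against ethanol (median -1.91), beside 27.5% of all genes called lower. At 2, 4 and 6 days of IAA 25, 24 and 23 fell (medians -1.13, -1.58 and -1.39), beside 9.94%, 14.9% and 17.5% of all genes. At 2 and 4 days of inhibitor 10 and 19 fell while 3 and 1 rose (medians -0.40 and -0.60). There 13.6% and 3.84% of all genes were lower, and 20.8% and 3.85% higher. In MAVS-knockout clones on IAA 9 fell (median -0.38), beside 3.15% of all genes. In cells without Cre 10 rose and 1 fell on 4OHT (median 0.17), beside 7.26% of all genes higher and 6.44% lower. In HEK293 3 rose and 2 fell without dox (median -0.08), beside 11.1% of all genes higher and 10.9% lower. The part of these shifts in the histone values was not tested. In bulk RNA, fewer cells in a phase and less RNA per cell cannot be told apart. CDC25A, a phosphatase that opens S phase, fell by 1.80 in Cre cells on 4OHT, CCNE2 by 1.82 and CDK2 by 1.15, whereas CCNE1 did not pass (0.06).

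Among 22 tested genes of histone mRNA processing 5 rose and 9 fell in Cre cells on 4OHT (median -0.14), beside 26.4% and 27.5% of all genes. In this list 2 rose and 8 fell at 2 days of IAA, 2 and 10 at 4 days and 4 and 10 at 6 days. At these times 9.12%, 17.9% and 17.8% of all genes were higher and 9.94%, 14.9% and 17.5% lower. In HEK293 without dox 9 rose and none fell (median 0.36), beside 11.1% of all genes higher. SLBP, the stem-loop binding protein, fell by 0.80 in Cre cells (edgeR adjusted p = 5.78e-08) and by 0.73, 0.60 and 0.68 at 2, 4 and 6 days of IAA. It rose by 0.21 on 4OHT without Cre (edgeR adjusted p = 0.0189) and did not pass in HEK293 (-0.15, edgeR adjusted p = 0.397). NPAT, the coactivator of histone transcription, fell by 0.64 in Cre cells and by 0.47, 0.40 and 0.40 at the 3 times of IAA. LSM10 and LSM11 are parts of the U7 particle that cuts the 3′ end. LSM10 rose by 0.49 in Cre cells, and LSM11 did not pass there (0.10) but fell by 1.25 at 6 days of IAA.

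Of 20 tested histone chaperones 13 fell and none rose in Cre cells on 4OHT (median -0.87), beside 27.5% and 26.4% of all genes. At the 3 times of IAA 13, 14 and 13 fell, beside 9.94%, 14.9% and 17.5% of all genes. There 0, 0 and 1 rose, beside 9.12%, 17.9% and 17.8%. In HEK293 3 rose and 2 fell, near the 11.1% of all genes higher and 10.9% lower. ASF1B, which hands H3 and H4 to assembly, fell by 2.38 in Cre cells and by 1.18, 1.52 and 1.60 at 2, 4 and 6 days of IAA. Its relative ASF1A did not pass in Cre cells (-0.08). The chromatin assembly factor subunits CHAF1A and CHAF1B fell by 1.84 and 2.19 in Cre cells and by 1.07 and 1.04 at 2 days of IAA.

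Replacement histones are also made outside S phase, mostly from polyadenylated mRNA. Of 11 tested, 1 rose and 9 fell in Cre cells on 4OHT (median -0.87), beside 26.4% and 27.5% of all genes. At 2, 4 and 6 days of IAA 7 fell each time and 1, 1 and 0 rose. Of all genes 9.94%, 14.9% and 17.5% were then lower and 9.12%, 17.9% and 17.8% higher. H2AZ1 and H2AZ2, the H2A.Z genes, fell by 1.75 and 1.18 in Cre cells and by 1.02 and 0.53 at 2 days of IAA. H3-3A and H3-3B, the H3.3 genes, fell by 0.35 and 0.22 in Cre cells and by 0.25 and 0.40 at 2 days of IAA. In HEK293 without dox 1 rose and 1 fell, near the 11.1% of all genes higher and 10.9% lower. H2AZ2 was the one that fell (-0.57, edgeR adjusted p = 0.0105).

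Features of the called members are given beside those of the members tested. Of the 17 that rose in Cre cells, 12 were H2A or H2B genes, 7 of these 12 had the octamer, and 11 lay on 6p, 5 at 1q21 and 1 at 1q42. Among the 21 tested there 14 were H2A or H2B genes, 8 with the octamer, and in the whole family 25 of the 34 H2A and H2B promoters had it. The stem-loop lay within an annotated model for 13 of the 16 called members with a model, and in 11 of these a model ran more than 100 bases past it, beside 15 and 13 of 20 tested members with a model. Of the 9 that fell in HEK293 without dox, 6 of the 8 with a promoter window had the octamer, and of the 5 that rose 1 had it. These counts are descriptions of small lists, and no list was tested against chance.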

How the data were processed

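TRIzol-extracted RNA with an integrity number above 9 was sequenced after poly-A selection (40 HCT116 libraries) or ribosome depletion (6 HEK293 libraries), per the labels' protocols. For each line the authors deposited a gene table of estimated counts and one of TPM. The authors scaled the TPM to the length of transcripts and to library totals. The submitters' processing notes name Salmon 1.10.2, kallisto 0.50.0, DESeq2 and GRCh38, and the names of the deposited HEK293 tables carry kallisto. The tool behind the HCT116 tables, the annotation, strand handling and how reads shared by copies were divided were not given in the sources used here.

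Estimated counts were rounded to whole numbers. They were tested in R 4.3.3 with edgeR 4.0.16, using TMM factors, a filter on low counts by group, quasi-likelihood tests, and adjustment by Benjamini-Hochberg over all genes tested at 0.05. Of 3 separate fits, the degron one held 32 libraries in 12 groups (18877 genes, 20 residual degrees of freedom). The fit of the floxed lines held 8 libraries in 4 groups (16726 genes, 4 degrees of freedom), and that of HEK293 held 6 (15549 genes, 4 degrees of freedom). Differences between responses were contrasts of 4 groups within a fit. A standard error is the absolute log2 change divided by the root of quasi-F. CPM are counts scaled to a library total of 1 M. Floors and depths cover counting error only, as reads carry no molecular identifiers. The test script was tested on simulated data.

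Alternatives were RLE factors, a fit with no count filter, limma 3.58.1 on log2(TPM + 1), DESeq2 1.42.0, a fit of the compared groups alone, a block for the clone or replicate number, and leaving out each library, where a lone one is taken to vary as the other groups do. Summed identical copies and 1-day DMSO controls were added after seeing the data. The members and lists were chosen with earlier results of these data known. Genes were named by rule: each called member, up to 12 per comparison by size of change, the 2 members per class with the highest mean TPM in each table, and the first 4 genes of each other list. Members beyond these were named after their values were seen. Where groups are said not to overlap, the genes had been called first. The share of all genes without overlap is not given here.

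Both arms of the degron and HEK293 comparisons hold the same clones, so the labels pair these libraries. Same-clone deviations from the group means correlated at 0.0273 to 0.123 at 2 days of IAA, 0.0621 to 0.273 in MAVS-knockout clones and 0.245 to 0.467 in HEK293. Replicate libraries differed by more than sampling noise.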

Additional observations from a re-analysis of the deposited data

Results flagged for a closer look

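Members are listed here because a response differed between 2 settings in an edgeR quasi-likelihood contrast of 4 groups, with Benjamini-Hochberg adjustment over all genes tested. The 4-day response to IAA was smaller with the CDK4/6 inhibitor than without it for H3C6 (-1.82, edgeR adjusted p = 0.0213), H2BC5 (-1.92, edgeR adjusted p = 0.0255) and H2BC21 (-2.22, edgeR adjusted p = 0.0413). H3C6 had 5.95, 9.23 and 7.03 CPM with inhibitor and IAA, against 6.16, 4.97 and 6.45 CPM with inhibitor, whereas IAA alone gave 10.7, 8.64 and 9.13 CPM, against 2.96, 1.25 and 2.91 CPM on DMSO. The inhibitor libraries thus already lay above the DMSO libraries. Each of the 3 calls was lost without at least 1 single library, all of them without DMSO clone 7.

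The response to 4OHT was larger in Cre cells than in cells without Cre for 12 members. The largest difference, 3.85, was that of H4C15, 1 gene of an identical pair, with edgeR adjusted p = 0.0182, and it was lost without 1 of 3 libraries (second Cre library on 4OHT, second ethanol or first 4OHT library without Cre). The pair sum with H4C14 differed by 0.88 (edgeR adjusted p = 0.0499). H2AC6 and H2AC13 both differed by 2.75 (edgeR adjusted p = 1.68e-07 and 0.0396), H2BC21 by 2.47, H3C10 by 2.43 and H2AC18 by 2.39. H2BC5 differed by 2.37, H2BC12 by 2.04, H2AC25 and H2BC4 both by 1.58, H1-2 by 1.31 and H3C6 by 1.1 on the log2 scale. H2BC4 (edgeR adjusted p = 0.0453) and H2AC13 were each lost without any of 7 of the 8 libraries, and H3C10 without the first ethanol library of cells without Cre. The other 8, H2AC6, H2BC12, H1-2, H2BC5, H2AC18, H2BC21, H2AC25 and H3C6, were called whichever library was left out.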

How the results depend on the processing

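No tried setting turned the direction of a called member. Of 82 called values of single genes, 3 lost their call with RLE factors, 4 without the count filter, 4 with the replicate block, 11 with DESeq2 and 13 with limma on log2(TPM + 1). With the 1-day DMSO controls 10 of 32 lost theirs, with the compared groups alone 6 of 51 and with identical copies summed 1 of 77. With single libraries left out, 141 of 495 such values lost their call. The number of called members moved by over 1.5 times in these cases. At 1 day of IAA it was 1 without the filter and 1 with the compared groups alone, in place of 0. At 6 days of IAA it was 16 without the filter and 5 with the compared groups alone, in place of 9. For 6 against 2 days of IAA it was 6 without the filter, 2 with the block, 3 with limma and 0 with copies summed, in place of 1. For the inhibitor at 2 days it was 7 without the filter, with limma or with the compared groups alone, 5 with copies summed and 0 with 1-day controls, in place of 3, and at 4 days 6 without the filter and 6 with 1-day controls, in place of 3. For inhibitor with IAA at 2 days it was 1 without the filter, 1 with the block and 2 with the compared groups alone, and at 4 days 2 without the filter, 1 with DESeq2, 1 with limma and 3 with the compared groups alone, in place of 0. The 4-day difference with the inhibitor had 0 with limma in place of 3. MAVS-knockout clones on IAA had 5 without the filter in place of 2, and their difference from MAVS-intact clones 1 without the filter, 2 with the block, 2 with DESeq2 and 1 with limma in place of 0. Cells without Cre had 2 without the filter and 0 with DESeq2 in place of 1. HEK293 without dox had 24 with the block in place of 14. Where the filter was left out more members were tested, and elsewhere the cause was not tested.

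Some values that did not pass changed sign. With identical copies summed H4C14 stood at 1.80 at 2 days of IAA and 0.078 in HEK293. With limma H1-2 stood at -0.12 at 6 days of IAA, H3C6 at -0.15 at 2 days of inhibitor, and H2BC26 at -0.16 and H4C12 at -0.32 in Cre cells. With single libraries left out H1-2 ran from -0.077 to 0.39 at 6 days of IAA and H4C12 from -6.13 to 1.33 in Cre cells. In HEK293 H1-2 then ran from -0.20 to 0.085, H1-4 from -0.072 to 0.19, H2BC12 from -0.11 to 0.27, H3C15 from -0.21 to 0.11, H3C2 from -0.0079 to 0.39 and H4C14 from -0.0823 to 0.064.

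Leaving out each library in turn gave between 0 and 0 called members after IAA for 1 day, between 5 and 7 for 2 days, between 7 and 10 for 4 days, between 6 and 12 for 6 days, and between 0 and 4 comparing 6 with 2 days. The inhibitor alone had 1 to 4 calls at 2 days and 2 to 4 at 4 days, inhibitor with IAA had 0 to 0 and 0 to 2, and there were 0 to 0 and 0 to 5 for the difference in IAA response. It was 0 to 4 in MAVS-knockout clones and 0 to 2 for their difference, 13 to 16 in Cre cells, 0 to 1 without Cre, 9 to 12 for the difference between these, and 4 to 23 in HEK293.

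The clone pairs the degron and HEK293 libraries. Besides the calls given with their results, the block changed these: at 2 days of IAA H3C15 was lost (edgeR adjusted p = 0.0554), at 4 days H2AC17 and H4C15 (0.0762 and 0.0545), at 6 days H1-4 passed (-2.11, edgeR adjusted p = 0.0391), and for 6 against 2 days H2AC6 passed (0.79, edgeR adjusted p = 0.0349). The numbers of the floxed libraries are only numbers, with correlations of 0.012 and 0.0632. With them as a block H2BC4 lost its difference between Cre and no Cre (edgeR adjusted p = 0.0563).

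The poly-A libraries hold few reads of most members, so that 41 of 69 in the degron and 48 of 69 in the floxed lines could not be tested, and a change in them was not detectable at this depth. HCT116 groups have 2 or 3 libraries. IAA cannot be told apart from dox, nor the 4- and 6-day arms from the longer culture, since their controls are 2-day libraries. The counts of identical copies depend on how reads were divided.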
